A study of Mus musculus with 12 samples.

Results

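The genes described here are 3 receptors for estrogens (Esr1, Esr2 and Gper1) and 7 genes known to be induced by estrogen or tied to its signalling (Pgr, Greb1, Gal, Cish, Nrip1, Socs2 and Pttg1), read in the pituitary of young adult female mice. They were taken as every non-control probe whose gene name, or a synonym of it, is one of these 10. The rule found 21 probes on 39 spots, out of 39429 probes on the array. All 10 genes were among the 19089 genes in the fit, and 19 of their probes passed the filter on dim signal.

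The study measured pituitary RNA of 12 female C57BL/6J mice aged 2 months, with 4 mice in each of 3 diet groups. Early life mice had a vitamin D-deficient diet only in early life, peripubertal mice had it only around puberty, and control mice had a normal diet. Per the labels the glands were taken from adults and minced whole, with each mouse a biological replicate. The labels used here give no stage of the estrous cycle, over which circulating estradiol varies, so the stage is an unrecorded factor in every comparison below.

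Each of the 6 2-colour Agilent arrays carried 2 mice of the same group, the odd-numbered mouse in Cy3 and the even-numbered in Cy5. Both control arrays lay on 1 slide and the arrays of both deficient groups on the other, and the part of slide and the part of diet cannot be told apart where control is compared. Spots well above background made up 50.6% to 59.7% in early life, 57.9% to 67.2% in peripubertal and 61.0% to 66.3% in control samples. Spots marked as outliers made up 6.54% to 7.34%, 3.85% to 5.08% and 1.68% to 1.90% of spots in the same groups, and were left out. The files disagree on the deficient groups. All 8 of their columns in the authors' value table match, within 1e-05 on the log2 scale, channels that the scanner files place in the other deficient group. Groups are named here by the scanner files, and under the table's assignment early life and peripubertal change places. The pituitary's own hormone genes were bright, with Gh at rank 1, Prl at rank 3, Pomc at rank 7 and Cga at rank 15 of all genes in mean level. The uterine markers Hoxa10 and Hoxa11 and the ovarian markers Amh, Zp3 and Cyp11a1 did not pass the filter on dim probes, while the ovarian-list genes Inha and Cyp17a1 did.

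Estradiol enters cells and binds the nuclear receptors that Esr1 and Esr2 encode, which then act on DNA directly or through other transcription factors. Gper1 encodes a membrane receptor that signals through a G protein. In the rodent pituitary, estrogen acts on prolactin and gonadotropin cells. Galanin and the progesterone receptor are among the products classically induced there by estrogen, and their messages vary over the cycle.

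The levels below rest on short stretches of transcript. The first 30 bases of the 60-base probes of the genes with the largest differences are shown as the scanner files give them, since each level is the brightness of that probe and not of the whole gene. The bases run 5′ to 3′, without capitals because no stretch is singled out. The first 3 lines are the separate probes of Pgr, which lie on chromosome 9 at 8968492 to 8968551, 8961434 to 8961493 and 8946947 to 8947006 of build mm9. Gal lies on chromosome 19 at 3411143 to 3411202, Greb1 on chromosome 12 at 16677448 to 16677507 and Cish on chromosome 9 at 107204196 to 107204255 of the same build. Which exon or untranslated region a probe covers was not looked up.
Pgr probe A_55_P2095663: gtgtataaacacatggcatgtttagttagg
Pgr probe A_51_P213476: gagatgagatcaagctatatccgcgaattg
Pgr probe A_55_P1985925: ccaggtaatttgtacatggtatcatgcatt
Gal probe A_51_P258281: tgttgatgtgcccctgcctgagagcaacat
Greb1 probe A_55_P2114776: cctatgccatcctccctgctttattagtta
Cish probe A_51_P470715: actttagaaaacaagtgttagaacacaaga

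The control samples were not uniform for these genes. Control 3 stood apart from the other controls in Pgr (8.63 against 9.92 in the nearest control), Greb1 (12.04 against 12.94) and Esr2 (11.51 against 10.85), all as log2 normalized intensity. It also had the lowest Gal of the controls, 14.26 against 16.81 in the nearest. In Pgr, Greb1 and Gal, control 3 lay on the side of the early life samples, whereas control 4, which shared its array, did not. The differences of these 4 genes and of Cish between early life and control are also given without it. Control 3 was singled out in these same values, so results without it are no separate support. For Pgr, Gal and Cish the test against peripubertal is given without it too. That difference does not include control 3 and stays the same, and only the spread that the groups share changes.

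In early life pituitaries Pgr and Gal were the members furthest below the other groups, Greb1 was lower by less, and Cish and Pttg1 were higher, but no member passed the test in any comparison. Each difference was fitted with limma across all genes, with group and dye as terms and array as a random block, and was called at a Benjamini-Hochberg adjusted p under 0.05 over all genes. For early life against control, 0 of the 10 members were called, where 0.0979% of 18386 genes were. An unadjusted p under 0.05 was reached by 5 members, against 16.2% of all genes. For peripubertal against control, 0 members were called, where 0.0213% of 18770 genes were. Here 2 members reached an unadjusted p under 0.05, against 4.69% of all genes. For early life against peripubertal, 0 members were called, where 0.132% of 18241 genes were. In this comparison, which lies within 1 slide, 7 members reached an unadjusted p under 0.05, against 19.4% of all genes. Log2 changes of 1 and 2 were also simulated on genes drawn at random. Of these the fit called 58.3% and 93.7% for early life against control. For early life against peripubertal it called 68.7% and 92.6%. The median SE over all genes was 0.19, against 0.36 in Pgr, 0.37 in Greb1 and 0.93 in Gal. The rates do not carry over to genes with so large an SE.

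**Figure D1:**
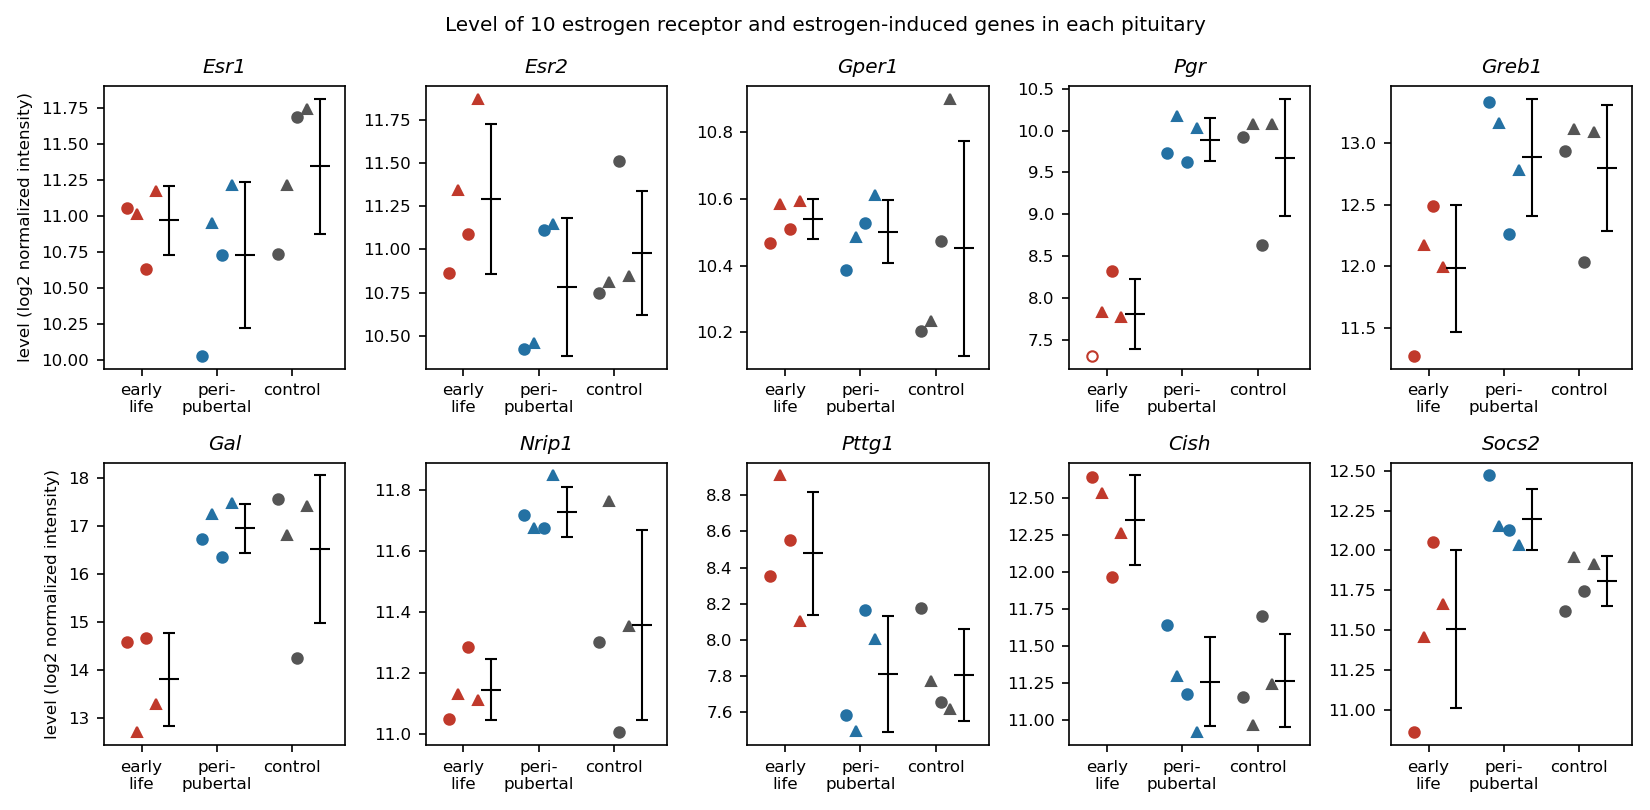
Level (log2 normalized intensity, vertical axis with its own range in each panel) of the 10 genes in the 4 early life, 4 peripubertal and 4 control samples. Circles are Cy3, triangles Cy5, open symbols samples not well above background, and bars the mean ± SD; early life lies lowest in Pgr and highest in Cish, while in Gal the control 3 sample at 14.26 lies among the early life samples.

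The 3 receptor genes were measured in every sample and did not differ between groups by the test. Esr1, the main estrogen receptor of the pituitary, is represented by a probe printed on 10 spots of each array. Its level was 11.06, 11.01, 10.63 and 11.17 in early life samples 1 to 4. It was 10.03, 10.95, 10.73 and 11.21 in the peripubertal samples and 10.73, 11.21, 11.68 and 11.74 in the controls. The groups overlapped, and the highest 2 values were those of controls 3 and 4, which shared an array. Esr1 differed by -0.38 on the log2 scale between early life and control (SE 0.27, adjusted p = 0.498). It differed by -0.61 (SE 0.27, adjusted p = 1.00) between peripubertal and control and by 0.24 between early life and peripubertal (SE 0.27, adjusted p = 0.643). Single spots of this probe varied within a sample with an SD of 0.20 to 0.42, over the 8 to 10 spots left after outlier marks. The Esr1 probe A_55_P2030883, also above background in all 12 channels, gave 0.10, 0.15 and -0.05 for the same 3 comparisons. Its sign was opposite to that of the 10-spot probe in each of them. Of the other 2 probes of Esr1, A_51_P474658 was well above background in 6 of 12 channels and in none of the early life samples, at least 1.09-fold lower than in control. The last was above background nowhere.

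Esr2, the second nuclear estrogen receptor, had levels of 10.86, 11.34, 11.09 and 11.87 in early life samples. The peripubertal samples had 10.42, 10.46, 11.11 and 11.15 and the controls 10.75, 10.81, 11.51 and 10.85. All 3 groups overlapped, and control 3 alone among the controls was above 11. The log2 difference was 0.31 between early life and control (SE 0.31, adjusted p = 0.640), -0.19 between peripubertal and control (SE 0.31) and 0.51 between early life and peripubertal (SE 0.31, adjusted p = 0.379). Without control 3 the difference between early life and control was 0.54 (adjusted p = 0.300). Gper1, named Gpr30 in the files, had overlapping groups. It ranged from 10.47 to 10.59 in early life, from 10.39 to 10.61 in peripubertal and from 10.20 to 10.90 in control samples. Its log2 differences were 0.09, 0.05 and 0.04 in the 3 comparisons, each with an SE of 0.15. The 95% interval of its difference between early life and control ran from -0.25 to 0.43.

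Pgr encodes the progesterone receptor, a nuclear receptor whose message estrogen raises in gonadotropin cells. Its level was 7.31, 7.83, 8.32 and 7.77 in the early life samples, the first of which was not well above background. Peripubertal samples had 9.73, 10.17, 9.62 and 10.03 and controls 9.92, 10.08, 8.63 and 10.08. All 4 early life values lay below all 8 others, and control 3 fell between the early life samples and the rest. Pgr differed by -1.87 between early life and control, that is 0.274 times the control level (SE 0.36, adjusted p = 0.0896). It differed by -2.08 between early life and peripubertal, or 0.237 times the peripubertal level (SE 0.36, adjusted p = 0.0544). For peripubertal against control the difference was 0.21 (SE 0.36, adjusted p = 1.00). Both early life differences missed the threshold.

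Without control 3 the Pgr difference passed, at -2.18 for early life against control (adjusted p = 0.0113). It also passed at an unchanged -2.08 against peripubertal (adjusted p = 0.00858), a difference that control 3 does not enter. Without early life 3, whose Pgr was the highest of its group, it passed as well, at -2.14 (adjusted p = 0.0251) and -2.35 (adjusted p = 0.0144). In Pgr, Nrip1 and Cish, early life 3 was the early life sample nearest to the peripubertal samples. Leaving it out widens these differences in the same values, so results without it are no separate support for any of these genes. Over all alternative settings the adjusted p of Pgr ran from 0.0113 to 0.372 against control and from 0.00735 to 0.351 against peripubertal, and its sign was negative in each of the 24 and 25 settings that gave a value.

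The other 2 probes of Pgr lie elsewhere in the gene and elsewhere on the array, and both were dimmer in early life. At probe A_51_P213476 no early life sample was well above background, with 7.09, 7.04, 6.96 and 6.81. Peripubertal samples had 8.90, 8.83, 8.38 and 8.45 and controls 8.65, 8.32, 7.81 and 8.91, again with control 3 lowest. This probe was at least 2.07-fold lower in early life than in control and at least 2.41-fold lower than in peripubertal. Such bounds set each dim sample at the lowest signal well above background in its channel, or at its own value if higher. They set these against the mean of all measured samples of the other group. With every kept probe tested on its own and adjusted over all kept probes, a setting added after the data were seen, its adjusted p was 0.0868 against control and 0.0453 against peripubertal. At probe A_55_P1985925, near the detection limit, early life samples were not well above background either. They were at least 1.11-fold lower than the control mean and at least 1.08-fold lower than the peripubertal mean. Of the peripubertal samples 3 were well above background there. All 3 probes thus had their lowest group mean in early life. In glands measured whole, fewer cells of a type and less RNA per cell cannot be told apart.

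**Figure D2:**
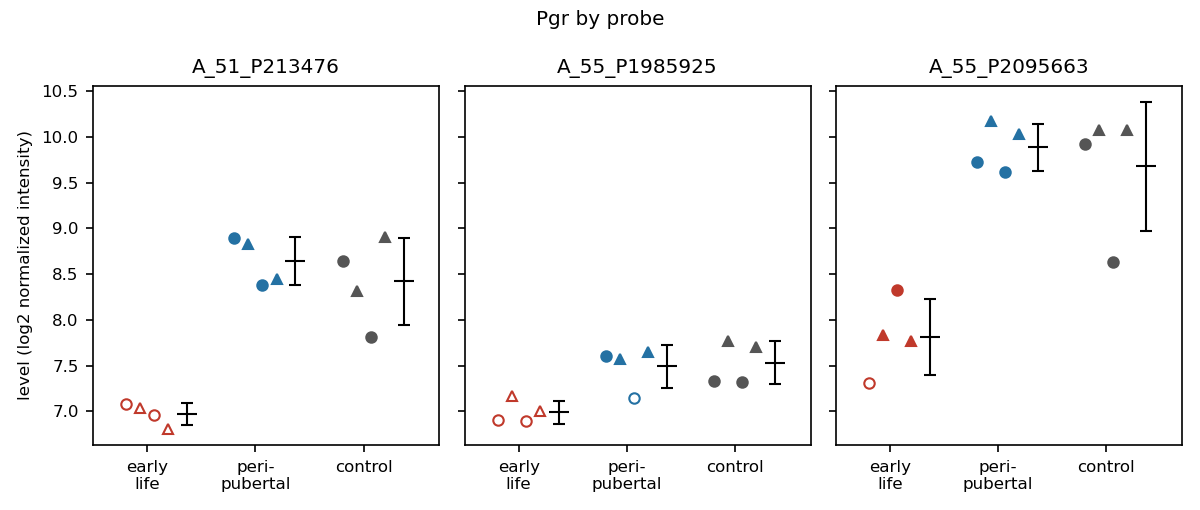
Level (log2 normalized intensity) of the 3 probes of Pgr in early life, peripubertal and control samples, with circles for Cy3, triangles for Cy5, open symbols for samples not well above background and bars for the mean ± SD (n = 4). Early life samples are open at the first 2 probes, and at probe A_51_P213476 they lie between 6.81 and 7.09.

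Greb1, a coactivator of the estrogen receptor first described in breast cancer cells, had levels of 11.28, 12.18, 12.49 and 11.999 in early life samples. Peripubertal samples had 13.33, 13.16, 12.27 and 12.78 and controls 12.94, 13.11, 12.04 and 13.09. The groups overlapped through control 3 and peripubertal 3, and early life 1 was the lowest of all samples. Greb1 differed by -0.81 between early life and control (SE 0.37, adjusted p = 0.308), by 0.09 between peripubertal and control (SE 0.37) and by -0.90 between early life and peripubertal (SE 0.37, adjusted p = 0.219). Without control 3 the difference between early life and control was -1.03 (adjusted p = 0.162). Its second probe was marked as an outlier on all arrays and gave no value.

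Nrip1 encodes RIP140, a corepressor that binds estrogen-bound receptors. Its level was 11.05, 11.13, 11.29 and 11.11 in early life samples. It was 11.72, 11.68, 11.67 and 11.85 in peripubertal samples and 11.30, 11.76, 11.01 and 11.36 in controls. Early life lay entirely below peripubertal and within the control range. The log2 difference was -0.21 between early life and control (SE 0.17, adjusted p = 0.538) and 0.37 between peripubertal and control (SE 0.17, adjusted p = 1.00). It was -0.58 between early life and peripubertal (SE 0.17, adjusted p = 0.126) and passed without early life 3, at -0.67 (adjusted p = 0.0467, range over settings 0.0318 to 0.693). The second, dimmer probe of Nrip1 gave -0.16 between early life and control, -0.37 between peripubertal and control and 0.21 between early life and peripubertal. The opposite sign in both comparisons with peripubertal rested on peripubertal 1, at 7.20 and not well above background, where the other peripubertal samples had 9.38, 8.86 and 9.18. Without that sample, a setting added after the data were seen, these differences were 0.06 and -0.22.

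Gal encodes the precursor of galanin, a peptide made in prolactin cells and among the most estrogen-induced messages of the rat pituitary. Its level was 14.59, 12.72, 14.66 and 13.30 in early life samples. Peripubertal samples had 16.74, 17.24, 16.36 and 17.48 and controls 17.57, 16.81, 14.26 and 17.43. Early life lay below every peripubertal sample and below 3 of the 4 controls, and control 3 lay within the early life range. Gal had the largest difference of the 10 genes, -2.70 between early life and control, or 0.154 times the control level (SE 0.93, adjusted p = 0.224). Against peripubertal it differed by -3.14, or 0.114 times that level (SE 0.93, adjusted p = 0.139). Between peripubertal and control it differed by 0.44 (SE 0.93, adjusted p = 1.00). Without control 3 the early life difference was -3.56 against control (adjusted p = 0.0377, range over settings 0.0377 to 0.531) and -3.14 against peripubertal (adjusted p = 0.0480, range 0.0283 to 0.459), both past the threshold. The peripubertal difference from control then turned to -0.43. Without control 4 the early life difference from control was smaller, at -2.07 (adjusted p = 0.531), and without early life 2 it was -2.19 (adjusted p = 0.375). The SD of Gal within groups was 0.96 in early life, 0.51 in peripubertal and 1.54 in control samples.

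Pttg1 encodes securin, which helps to keep sister chromatids together until anaphase and was first found as a transforming gene of rat pituitary tumour cells. Its level was 8.35, 8.91, 8.55 and 8.11 in early life samples. Peripubertal samples had 7.58, 7.500, 8.16 and 8.005 and controls 8.18, 7.77, 7.66 and 7.62. In each comparison the groups overlapped by 1 sample of early life. The log2 difference was 0.67 against control (SE 0.24, adjusted p = 0.237), 0.67 against peripubertal (SE 0.24, adjusted p = 0.187) and 0.01 between peripubertal and control. Its second probe was not above background in any sample.

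Cish and Socs2 encode inhibitors of cytokine receptor signalling that prolactin and growth hormone induce through STAT5, and Socs2 also responds to estrogen. Cish was higher in early life, at 12.64, 12.53, 11.97 and 12.27. Peripubertal samples had 11.64, 11.30, 11.17 and 10.92 and controls 11.16, 10.96, 11.70 and 11.24. All 4 early life samples lay above all 8 others, and control 3 was the highest control. Cish differed by 1.08 between early life and control, or 2.12 times the control level (SE 0.22, adjusted p = 0.102). It differed by 1.09 between early life and peripubertal (2.13 times, SE 0.22, adjusted p = 0.0768) and by -0.01 between peripubertal and control (SE 0.22). Without control 3 it passed, at 1.19 against control (adjusted p = 0.0399) and 1.09 against peripubertal (adjusted p = 0.0453). It passed without early life 3 too, at 1.25 (adjusted p = 0.0295) and 1.26 (adjusted p = 0.0215). The adjusted p of Cish ran from 0.0172 to 0.391 against control and from 0.0164 to 0.334 against peripubertal over all settings, and its sign was positive in each.

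Socs2 had the opposite sign to Cish in both comparisons with early life, but against control its sign turned under median centring and with outlier-marked spots left out before scaling. Its brightest probe read 10.86, 11.46, 12.05 and 11.66 in early life samples, 12.47, 12.15, 12.12 and 12.03 in peripubertal samples and 11.62, 11.96, 11.75 and 11.91 in controls. Peripubertal samples lay above all controls, and early life overlapped both groups. The log2 difference was -0.30 between early life and control (SE 0.26, adjusted p = 0.578), 0.39 between peripubertal and control (SE 0.26, adjusted p = 1.00) and -0.69 between early life and peripubertal (SE 0.26, adjusted p = 0.191). The probe printed on 10 spots gave 0.00, 0.22 and -0.21 for the same comparisons, with an SD between spots of 0.24 to 0.56 within a sample. Another single-spot probe gave 0.07, 0.45 and -0.38. The difference between early life and control was thus below 0 at 1 of the 3 bright probes. The remaining, much dimmer probe, well above background in 11 of 12 channels, gave -0.01, -0.11 and 0.10. Its sign was opposite to that of the brightest probe in both comparisons with peripubertal.

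**Figure D3:**
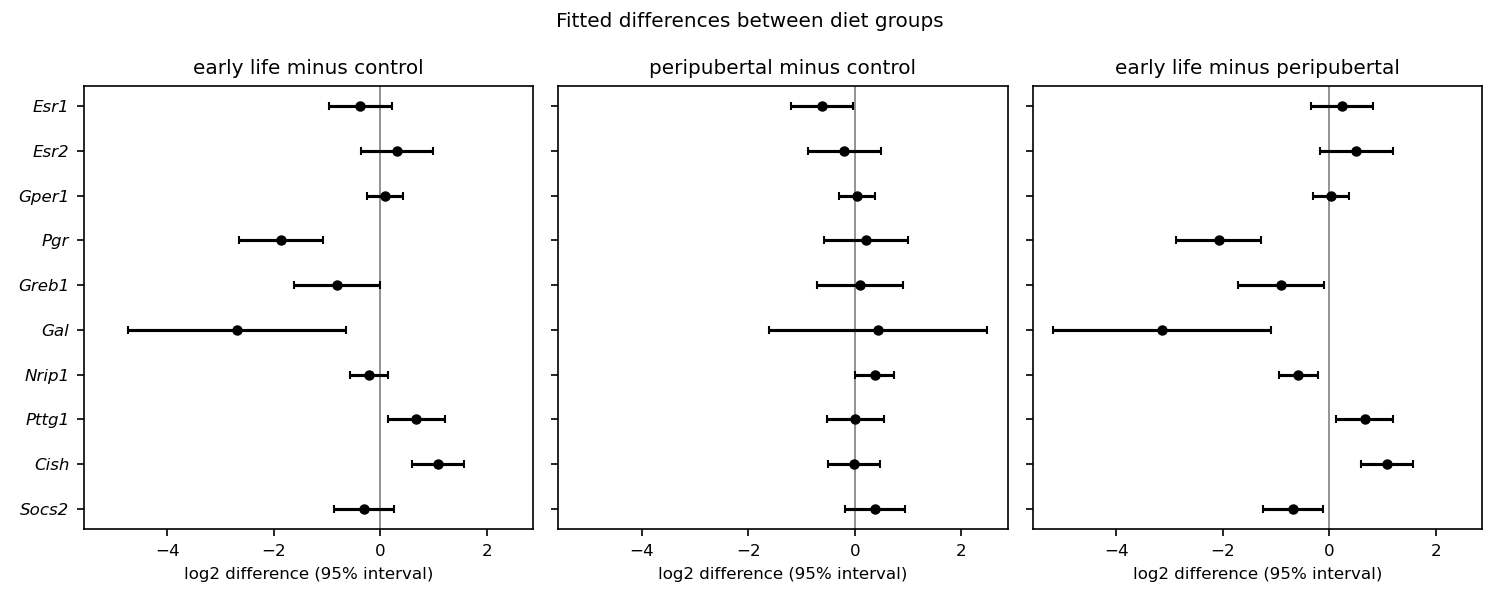
Fitted log2 differences (horizontal axis) of the 10 genes with 95% intervals that are not adjusted for the number of genes, for early life against control, peripubertal against control and early life against peripubertal. Pgr and Gal lie furthest left and Cish furthest right in both comparisons with early life, and no estimate in the middle panel is larger than that of Esr1, -0.61.

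The members did not share a direction. Against control, 4 were higher in early life and 6 lower (Esr1, Nrip1 and Socs2 turned sign under median centring and with outlier-marked spots left out before scaling), with a median log2 difference of -0.26 against 0.03 over all genes, of which 53.5% were higher. Their median size, leaving the sign aside, was 0.52 against 0.21 over all genes. Against peripubertal, 5 were higher in early life and 5 lower, with a median of -0.27 and a median size of 0.68, where all genes had 0.03 and 0.23 and 53.9% were higher. Between peripubertal and control 7 were higher and 3 lower, with a median of 0.07 and a median size of 0.20, where all genes had 0.01 and 0.13 and 51.4% were higher. Groups did not overlap in 2 members for early life against control (Pgr and Cish), where 15.1% of all genes did not. They did not overlap in 1 member for peripubertal against control (Socs2), against 9.24% of genes. Between early life and peripubertal the groups were apart in 4 members (Pgr, Gal, Nrip1 and Cish), against 22.4% of genes. The comparisons with early life share its samples, so their likeness is no second observation.

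**Figure D4:**
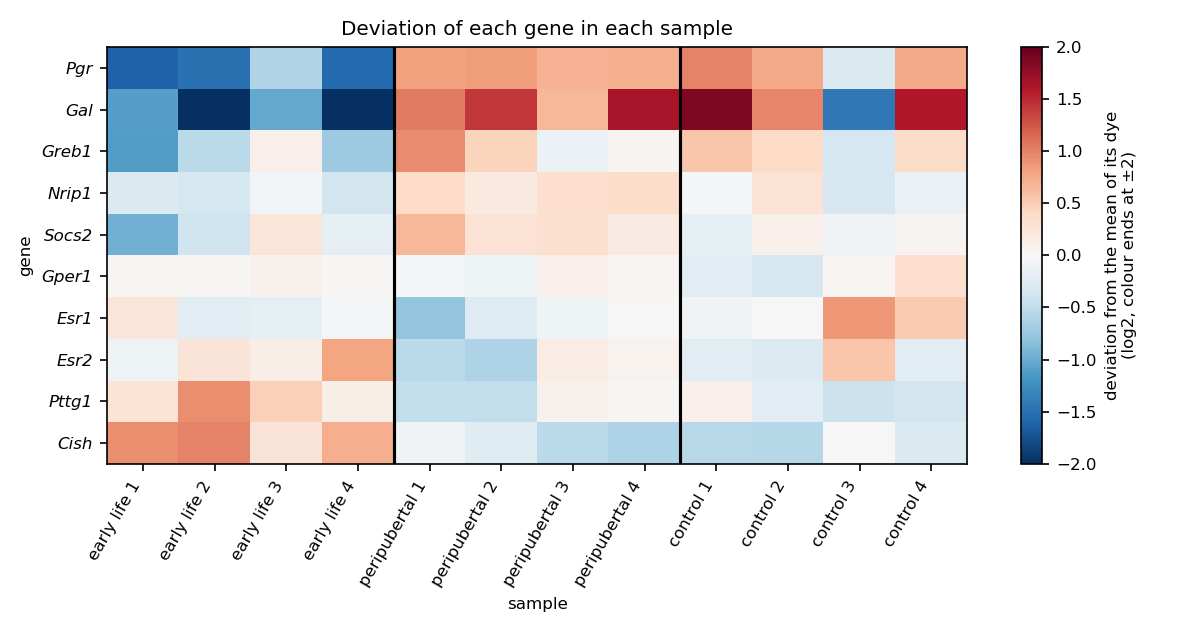
Deviation of each gene (rows) in each sample (columns, grouped as early life, peripubertal and control) from the mean of its dye, on the log2 scale with colours ending at ±2. Pgr and Gal are below their mean in all 4 early life samples and in control 3, while Cish is above its mean in all early life samples.

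Across the 12 samples, Pgr and Gal went together, with a Pearson r of 0.93 after centring within each dye, and Pgr and Greb1 with an r of 0.87. Cish ran opposite to Pgr (r of -0.95) and to Gal (r of -0.88). These are descriptions over samples that share groups, arrays and slides, and carry no p. In the 4 controls, control 3 had the lowest Pgr, Gal, Greb1 and Nrip1 and the highest Cish and Esr2.

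**Figure D5:**
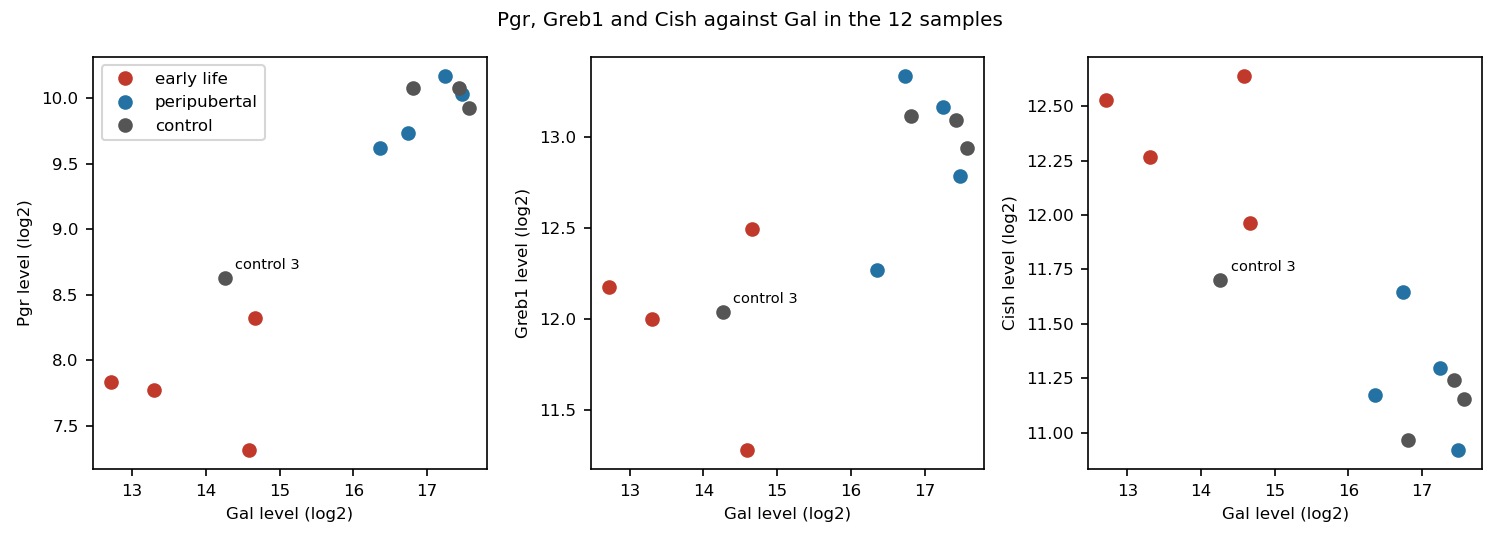
Levels (log2 normalized intensity) of Pgr, Greb1 and Cish on the vertical axes against Gal on the horizontal axis, 1 point per sample. Control 3, at a Gal level of 14.26, lies by the early life samples in all 3 panels.

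No measured marker of another cell type was called in any comparison, but some marker lists lay to one side in early life. All 3 red cell markers (Hba-a1, Hbb-bt and Alas2) were lower in early life than in both other groups, with a median log2 difference of -1.12 against control and -2.09 against peripubertal. The mean of their log2 levels in a sample ran from 11.64 to 13.36 in early life, from 13.68 to 15.24 in peripubertal and from 12.19 to 14.83 in control samples. Hba-a1, an alpha globin gene, lay at 14.03 to 15.76 in early life samples and at 16.02 to 17.46 in peripubertal ones, and stood at 16.925, 16.22, 14.66 and 14.85 in controls 1 to 4. All 3 macrophage markers were lower in early life too, with a median log2 difference of -0.18 against control and -0.42 against peripubertal. Of these, Cd68 had a value in 2 early life samples, with a mean of 9.27 against 9.46 in control and 9.30 in peripubertal samples. All 3 markers of the posterior lobe (Avp, Oxt and Rax) were higher in early life, with a median log2 difference of 0.51 against control and 0.39 against peripubertal, where Oxt had a value in 2 early life samples. Of 5 ovarian markers 2 were measured. One of them, Inha, an inhibin subunit gene that gonadotropin cells also express, lay above all controls in the 2 early life samples with a value and in all peripubertal samples, with a log2 difference of 0.60 in early life (adjusted p = 0.197) and in peripubertal samples (adjusted p = 0.557). The other, Cyp17a1, was higher in early life than in control but lower in peripubertal samples than in control. The median log2 difference of these 2 genes was 0.35 for early life and -0.01 for peripubertal against control. The part of these cells in the result was not tested.

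Among genes of the hormone cells that carry the receptors, Nr5a1, a transcription factor gene of gonadotropin cells, averaged 11.16 ± 0.24 in early life, 11.74 ± 0.15 in peripubertal and 11.44 ± 0.44 in control samples (SD, n = 4). Early life lay below every peripubertal sample, with a log2 difference of -0.58 (SE 0.23, adjusted p = 0.218), and overlapped with control. Prl, Gnrhr and Lhb overlapped between all groups. Prl, the prolactin gene, ranged from 17.78 to 18.20 in early life, from 16.99 to 18.01 in peripubertal and from 16.89 to 18.24 in control samples. Gnrhr, the gonadotropin-releasing hormone receptor of gonadotropin cells, ranged from 11.42 to 12.15, from 11.75 to 11.85 and from 10.84 to 12.002 in the same order. Lhb, a gonadotropin subunit, averaged 12.91 ± 0.44, 13.66 ± 0.67 and 12.94 ± 1.18 (SD, n = 4). Fshb, the subunit of follitropin, had no early life value and was lowest in control 3 among the 8 other samples, at 13.17. Gh and Cga lacked values in early life 1 and 2.

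Genes around the members in the same pathways were read from 7 lists, and 0 of their genes were called in any of the 3 comparisons. On a list of other estrogen-induced genes 18 were measured, and against control 11 of them were higher in early life and 7 lower (median 0.08). The members of smallest p there were Hspb8, a small heat shock protein gene (-0.94, SE 0.30, adjusted p = 0.204), and Krt19, a keratin gene (0.63, SE 0.22, adjusted p = 0.228). Against peripubertal they were Igf1, a growth factor gene (0.46, SE 0.12, adjusted p = 0.115), and Ctsd, which encodes the protease cathepsin D (-0.50, SE 0.14, adjusted p = 0.119). Between peripubertal and control they were Igf1 (-0.23) and Ccnd1, a cyclin gene (-0.54).

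Among 17 measured coregulators and chaperones, 9 were higher in early life than in control and 8 lower. Ep300, an acetyltransferase that receptors recruit, differed by -0.78 (SE 0.19, adjusted p = 0.152) and by -0.82 against peripubertal (SE 0.19, adjusted p = 0.112). It had a value in only 2 early life samples, which shared an array. Ncoa1, a coactivator, differed by 0.42 between early life and control (SE 0.13, adjusted p = 0.205), and Fkbp4, a receptor co-chaperone, by -0.70 between early life and peripubertal (SE 0.24, adjusted p = 0.167). Between peripubertal and control the smallest p were those of Ncoa1 (0.28) and Carm1, a methyltransferase gene (-0.36, with a value in 2 peripubertal samples). Of the 8 other steroid and estrogen-related receptors, 5 were higher in early life than in control and 3 lower. Esrrg, an orphan receptor, differed by 0.44 (adjusted p = 0.242) and Pgrmc1 by -0.41 (adjusted p = 0.273). Against peripubertal the same genes differed by 0.25 (adjusted p = 0.402) and -0.33 (adjusted p = 0.307), and between peripubertal and control Esrrg differed by 0.19 and Esrrb by -0.17. Of 6 measured genes of estrogen synthesis and inactivation, 2 were higher in early life than in control and 4 lower. Cyp1b1, which hydroxylates estradiol, differed by 0.61 against control (SE 0.27, adjusted p = 0.304) and by 0.60 against peripubertal (SE 0.27, adjusted p = 0.256). In that list Hsd17b1, which makes estradiol from estrone, was well above background in 0 early life, 3 peripubertal and 1 control samples. Early life was at least 1.26-fold below the peripubertal mean, which takes in a sample not well above background, with no bound against control. In the fit, the measured difference between early life and peripubertal had an adjusted p of 0.0736. Between peripubertal and control Hsd17b1 differed by 0.54 (SE 0.19, adjusted p = 0.934) and Hsd17b7 by -0.22.

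Around Cish and Socs2, 6 of 10 measured STAT5 and SOCS genes were higher in early life than in control and 4 lower. Stat5a, a transcription factor that drives Cish, had the largest difference and ran the other way from Cish, at -2.22 against control (SE 0.46, adjusted p = 0.130) and -2.60 against peripubertal (SE 0.56, adjusted p = 0.0949). Not all peripubertal samples had a value for Stat5a, which widened the SE of the second difference. Jak2, the kinase upstream of Stat5a, differed by 0.72 against control (SE 0.19, adjusted p = 0.153), and Socs1 by -2.13 against peripubertal (SE 0.47, adjusted p = 0.102). Of 3 measured genes for galanin receptors and the related peptide, 1 was higher in early life than in control and 2 lower. Galr3 differed by -0.74 between early life and control (SE 0.27, adjusted p = 0.238) and by -0.98 against peripubertal (SE 0.27, adjusted p = 0.119). Galr1 was well above background in 0 early life, 2 peripubertal and 2 control samples. Early life was at least 1.102-fold below the control mean, which takes in control samples not well above background, with no bound against peripubertal. In the fit, the measured difference between early life and control had an adjusted p of 0.257. Of 5 measured partners of securin, 4 were higher in early life than in control and 1 lower. Rad21, a cohesin subunit, differed by 0.43 (SE 0.15, adjusted p = 0.229) and Pttg1ip, which binds securin, by 0.31 (SE 0.13, adjusted p = 0.273). Cdc20, which activates the complex that degrades securin, differed by 0.76 between early life and peripubertal (SE 0.41, adjusted p = 0.318). Fzr1, a partner of the same complex, differed by -0.40 between early life and peripubertal (SE 0.21, adjusted p = 0.320). Between peripubertal and control the smallest p in these 3 lists were those of Socs7 (-0.43) and Ghr (0.21), of Galr1 (-0.35) and Galr3 (0.25), and of Fzr1 (0.34) and Rad21 (0.26), and the smallest adjusted p of all 7 lists was 0.934.

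The genes whose 12 dye-centred levels were most like those of a member were looked up among 8624 genes above background in every channel. Nearest to Gal were Fgf12 (r of 0.97), Kiss1, which encodes kisspeptin (0.97), and Lamb3 (0.97). Nearest to Pttg1 were the mitotic genes Prc1 (0.95), Tpx2 (0.94) and Plk1 (0.91). Nearest to Greb1 were Dpp8 (0.97), Yes1 (0.97) and Sec63 (0.97), and to Cish Usf3 (0.98), Mtarc2 (0.97) and Ggh (0.97). Nearest to Esr2 were Rhox8 (0.97), 9330159M07Rik (0.96) and Taf7l (0.94), and to Nrip1 BC055324 (0.96), 2810039B14Rik (0.96) and Aldh1b1 (0.94). Nearest to Socs2 were Mpp5 (0.94), Cdan1 (0.93) and Arid4a (0.92). Esr1 and Gper1 had no gene as near, with Pi4kb (0.88), Tmem98 (0.87) and Gm5176 (0.87) for Esr1 and Camkmt (0.85) and Kptn (0.80) for Gper1. The samples share groups and arrays, and no p is given. Pgr was not eligible because 1 channel was not well above background.

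RefSeq promoter windows of build GRCm38.p6, from 250 bases before to 50 after the start, were available for 9 members and held 12 windows in all, with none used for Socs2. They were searched on both strands for GGTCANNNTGACC, the palindromic estrogen response element, and for GGTCA, the single site that it repeats. The full element was found in none of the members' windows and in 0.0700% of all 32851 promoters. The single site was found in windows of Gal, Greb1, Nrip1, Esr1, Esr2 and Cish and in 40.5% of all promoters, so it is common. It was not found in the window of Pgr, Pttg1 or Gper1. The stretches before the start of Gal (chr19:3414545-3414794, minus strand), Greb1 (chr12:16800887-16801136, minus strand) and Pgr (chr9:8899583-8899832, plus strand) are shown. By group mean these genes were the members furthest below both other groups in early life, though single samples of Greb1 overlapped. Control 3 was the lowest control in each. Capitals mark the single site in either orientation.
Gal: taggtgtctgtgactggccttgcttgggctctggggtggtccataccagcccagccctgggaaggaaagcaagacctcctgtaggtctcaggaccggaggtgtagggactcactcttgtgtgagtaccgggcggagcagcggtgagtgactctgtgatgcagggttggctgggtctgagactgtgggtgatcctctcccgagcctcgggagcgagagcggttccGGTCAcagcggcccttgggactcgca
Greb1: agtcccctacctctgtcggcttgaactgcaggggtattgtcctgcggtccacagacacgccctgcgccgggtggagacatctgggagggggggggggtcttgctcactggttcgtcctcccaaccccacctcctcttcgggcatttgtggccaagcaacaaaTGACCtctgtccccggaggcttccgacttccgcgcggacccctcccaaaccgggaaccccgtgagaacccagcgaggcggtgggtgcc
Pgr: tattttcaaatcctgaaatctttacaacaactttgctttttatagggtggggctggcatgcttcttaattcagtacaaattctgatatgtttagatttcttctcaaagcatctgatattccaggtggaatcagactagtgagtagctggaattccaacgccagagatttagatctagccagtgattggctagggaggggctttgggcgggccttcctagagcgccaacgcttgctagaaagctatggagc

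The single site begins 26 bases before the start of Gal and 88 bases before that of Greb1, whose second window (not shown) holds it at 194 and 85 bases before. The windows were also searched on both strands for TTCNNNGAA, the element that STAT factors bind, which 8.30% of all promoters hold. The window of Cish holds 2 matches and 1 of the 2 windows of Esr1 holds 1. Those of Cish lie in 30 bases around the start of Cish (chr9:107296654-107296683, plus strand), with the matches in capitals.
Cish: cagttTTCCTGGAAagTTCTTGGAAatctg

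A match describes the letters of the window and is no evidence that a factor binds there, and no match says only that these letters are absent from it.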

How the data were processed

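The members and lists were chosen with earlier results of these data known. The deposited scanner files give raw spot and background intensity from Agilent Feature Extraction 11.0.1.1 (probe positions mm9), per the file headers. The authors' deposited value table gives log2 values relative to each column's median; how it was made is not given in the sources used here.

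Intensity was corrected by normexp (offset 50), loess within arrays and Aquantile between arrays in limma 3.58.1 (R 4.3.3). Outlier-marked spots were left out after scaling, an order chosen after seeing the data. Replicate spots were averaged, probes well above background in at least 4 of 12 channels were kept (24603), and the brightest probe stood for a gene. By accession 27234 probes were named, by symbol 3576, by synonym 565, and 8054 kept the file's name. Groups were compared with limma's model (group and dye as fixed terms, array as a random block, correlation 0.342), two-sided, with Benjamini-Hochberg adjustment over all genes. Named genes are every member, the hormone genes of receptor-bearing cells, the 2 context genes of smallest p per list and comparison, and the 3 genes most like each member. A few results under this rule are not reported here. The steps were tested on simulated data and against limma's output on 14383 complete genes. Same-numbered samples correlated at -0.29 to 0.06 after the means of dye and group were removed. Such samples share a dye, and removing the means lowers r within a dye. The values therefore cannot decide whether replicate numbers pair samples, and the main fit used no pairing. The number of arrays limits the precision; the median SE of a log2 difference was 0.19.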

Additional observations from a re-analysis of the deposited data

Results flagged for a closer look

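Control 3 lay far from the other 3 controls in 3 genes, by Dixon's ratio at its 95% critical value. Pgr was 8.63 in control 3 against 9.92 in the nearest control, Greb1 12.04 against 12.94 and Esr2 11.51 against 10.85, all as log2 levels. These were 3 of 30 sets of 4 samples examined, where chance alone marks about 1 in 20. All 3 marks fell on the same mouse, in genes whose levels were correlated across samples. They are not separate events, and their number cannot be read against that rate. Gal, at 14.26 against 16.81, did not reach the critical value.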

How the results depend on the processing

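Under median centring the median of all genes shifted to 0.36, 0.24 and 0.15 (early life and peripubertal against control, early life against peripubertal), and to 0.31, 0.13 and 0.19 with outlier-marked spots left out before scaling, a setting added after seeing the data; values under both are read against those shifts. For early life against control, the 0 members past the threshold became 1 when probes were averaged per gene, 2 with no array block and 3 with outliers out first, and 0 to 3 with a sample left out (3 without control 3, 2 without early life 3). For early life against peripubertal they became 1 with the value table, with each probe separately, with the mean of probes, with normexp offset 16 or with only the groups compared, 2 with outliers out first, 4 with no array block, and 0 to 3 with a sample left out (3 without control 3, 3 without early life 3). For peripubertal against control they were 0 in each setting, and limma's unadjusted p was under 0.05 for 2.

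The members' median of -0.26 against control became -0.12 with the mean of probes, 0.18 with median centring and 0.12 with outliers out first (-0.31 to -0.15 with a sample left out). That of -0.27 against peripubertal became -0.081 with the mean of probes, -0.063 with outliers out first and 0.037 with probes above background in all channels (-0.32 to -0.22). That of 0.07 for peripubertal against control became 0.39 with median centring and 0.23 with outliers out first (-0.0067 to 0.20). Context genes past the threshold, 0 at first, became against control 1 with the mean of probes, 4 with no block, 15 with outliers out first and 0 to 3 with a sample left out. Against peripubertal they became 1 with array means, with the mean of probes or with only the groups compared, 2 with the value table or outliers out first, 12 with no block and 0 to 6 with a sample left out.

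Signs turned for small differences. For early life against control, Esr1 became 0.059 with median centring and 0.00567 with outliers out first, Nrip1 0.21 and 0.17, and Socs2 0.15 and 0.063. For peripubertal against control, Cish became 0.32 and 0.17 (-0.10 to 0.10 with a sample left out), Esr2 0.14 with median centring (-0.35 to 0.034), and Pttg1 -0.12 with processed signals and -0.016 with quantile scaling (-0.077 to 0.12). With a sample left out that comparison gave -0.43 to 1.07 for Gal, -0.026 to 0.16 for Gper1, -0.13 to 0.23 for Greb1 and -0.10 to 0.41 for Pgr. Gper1 became -0.018 for early life against peripubertal with processed signals. Except where the setting's construction shows it, the cause was not tested. With the replicate number as a block the members past the threshold stayed at 0 in each comparison (Pgr against peripubertal, -2.08, adjusted p = 0.0940); the block changed no call. All genes past the threshold ran from 0 to 3061, 0 to 20 and 1 to 1324 over the settings.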

Other observations

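The 4 control columns of the authors' value table match no scanned channel and were used in no comparison. Their log2 values, relative to the column median, had a median of 1.76 for Gal against 7.77 in the 8 other columns, and of -2.58 against 0.95 for Pgr. Esr1 had medians of 1.37 against 2.61 and Gper1 of 0.13 against 2.50. Higher in these columns were Pttg1 (4.06 against -0.11), Greb1 (6.37 against 4.38), Nrip1 (4.84 against 3.38), Socs2 (5.72 against 3.57) and Esr2 (4.07 against 3.10). The prolactin gene Prl stood at -2.90 against 9.78 and the gonadotropin subunit gene Lhb at -1.54 against 5.23, while the ovarian-list genes Inha and Cyp11a1 stood at 8.52 against 2.66 and at 8.71 against -2.31.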
